A study of Mus musculus with 4 samples.

Results

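The 9 genes described here are Padi4, Asb2, Sostdc1, Vwde, Cpeb1, Sbk2, Dnase1l3, Coro2b and Fam43a, out of 39179 gene identifiers in the deposited count tables and 11702 that entered the statistical fit. They were selected by name as transcripts present in follicular helper T (Tfh) cells and almost absent from non-Tfh cells of the same immunization, so their difference between the groups is the criterion of selection and is given as a description with no test. Tfh cells are CD4 T cells that enter B cell follicles and, through cell contact and cytokines, support germinal centres and antibody affinity maturation. They are recognised by the chemokine receptor CXCR5, the receptor PD-1 and the transcription factor Bcl6. The 9 genes do not form a pathway: they encode an arginine-modifying enzyme, a ubiquitin ligase subunit, a kinase, secreted proteins, an RNA-binding protein, an actin-binding protein and proteins of little known function.

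The cells came from OT-II mice, whose transgenic T cell receptor recognises ovalbumin, and were transferred into C57BL/6 recipients that received nitrophenol-coupled ovalbumin under the skin. On day 8, donor (Thy-1.1+) CD44hi cells were sorted out of pooled inguinal lymph nodes as CXCR5+ PD-1+ (Tfh) or CXCR5- PD-1- (non-Tfh). Both groups are thus activated cells of 1 transgenic receptor, and neither is a naive or a polyclonal population. Each group had 2 libraries, which carry the numbers T32 and T53, and the labels say neither what the numbers mark nor whether the libraries came from separate animals. P-values given below therefore measure only the spread between these 4 libraries, which may be technical.

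Gene counts summed to 12354113 (T32) and 5725358 (T53) in the Tfh libraries, against 13360563 (T32) and 8636056 (T53) in the non-Tfh libraries. Levels are CPM, counts scaled to a common library size with the trimmed mean of M-values (TMM). A single count was worth 0.0838 and 0.175 CPM in the Tfh libraries (T32, then T53, as throughout), against 0.0745 and 0.112 CPM in the non-Tfh libraries. Cxcr5, whose product was sorted on, stood at 747 and 712 CPM in the Tfh libraries, against 52.6 and 56.0 CPM in the non-Tfh libraries. T cell markers summed to 9573 and 8545 CPM in the Tfh libraries, against 8626 and 7955 CPM in the non-Tfh libraries, most of it Trac. Of the 10 T cell markers tested, Thy1, whose product marked the donor cells in the sort, was the only one to pass: it fell to 85.5 and 93.4 CPM in the Tfh libraries, against 229 and 219 CPM in the non-Tfh libraries (log2 fold change -1.33 ± 0.12 SE, edgeR with Benjamini-Hochberg adjustment, adjusted p = 0.00244). In bulk RNA, fewer expressing cells and less RNA per cell cannot be told apart, and this holds for every level below.

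The start regions of 5 of the genes are shown, those of Padi4 because it had the highest level and the other 4 because they carry the motif most common in the set. They are RefSeq windows of GRCm38.p6 that run 5′ to 3′ over 250 bases before and 50 bases after the annotated start, and 7 of the 9 genes matched the table, Asb2 with 2 windows. Capitals mark motif matches on either strand. In Padi4 (chr4:140774154-140774453, minus strand) they are an AP-1 motif and a TATA box, in Sbk2 (chr7:4964357-4964656, minus strand) and Fam43a (chr16:30599473-30599772, plus strand) a Runx motif, and in Coro2b (chr9:62536995-62537294, minus strand) and the downstream Asb2 start (chr12:103338341-103338640, minus strand) a Runx motif and an E-box.
Padi4: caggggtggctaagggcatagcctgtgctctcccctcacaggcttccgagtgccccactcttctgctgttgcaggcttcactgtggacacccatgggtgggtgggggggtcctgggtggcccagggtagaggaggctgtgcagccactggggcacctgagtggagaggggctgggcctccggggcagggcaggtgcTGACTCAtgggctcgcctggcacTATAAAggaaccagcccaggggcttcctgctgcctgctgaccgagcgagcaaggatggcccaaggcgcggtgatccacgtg
Sbk2: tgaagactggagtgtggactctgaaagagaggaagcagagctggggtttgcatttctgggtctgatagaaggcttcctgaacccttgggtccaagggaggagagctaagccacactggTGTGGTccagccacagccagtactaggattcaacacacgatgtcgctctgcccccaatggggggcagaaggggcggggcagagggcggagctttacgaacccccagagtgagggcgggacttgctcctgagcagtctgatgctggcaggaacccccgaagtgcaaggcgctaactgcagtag
Coro2b: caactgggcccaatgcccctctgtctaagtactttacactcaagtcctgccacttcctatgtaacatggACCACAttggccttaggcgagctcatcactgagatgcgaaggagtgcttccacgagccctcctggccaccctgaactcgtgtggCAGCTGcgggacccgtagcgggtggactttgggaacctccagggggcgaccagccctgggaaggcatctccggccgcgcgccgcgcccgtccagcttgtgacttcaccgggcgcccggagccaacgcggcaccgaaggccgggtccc
Asb2: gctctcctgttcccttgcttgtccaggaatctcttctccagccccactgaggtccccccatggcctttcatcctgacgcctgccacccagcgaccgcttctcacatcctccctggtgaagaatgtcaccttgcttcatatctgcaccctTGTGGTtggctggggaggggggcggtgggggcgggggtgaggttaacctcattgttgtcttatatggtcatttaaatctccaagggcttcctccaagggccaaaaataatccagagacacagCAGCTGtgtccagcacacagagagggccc
Fam43a: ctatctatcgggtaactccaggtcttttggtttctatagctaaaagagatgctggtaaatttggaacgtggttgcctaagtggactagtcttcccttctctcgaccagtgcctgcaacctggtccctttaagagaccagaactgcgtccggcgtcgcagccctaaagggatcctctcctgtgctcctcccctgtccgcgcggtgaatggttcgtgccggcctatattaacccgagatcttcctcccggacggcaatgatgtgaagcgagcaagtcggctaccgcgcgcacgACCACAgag
Of the motifs searched, the Runx motif (TGTGGT) was the most frequent, in 4 of the 8 windows, against 16.8% of all 32851 windows of the same length. It is singled out as the highest of several motifs in few windows, so this comparison is a description and not a test. The E-box (CAGCTG) was in 2 of the 8, against 16.3% of all windows. Padi4 held the only AP-1 match (TGANTCA; 7.81% of all windows), Padi4 and Cpeb1 the TATA box (TATAAA; 13.6%), and the upstream Asb2 window an NFAT motif (GGAAAA; 23.4%). The Bcl6 motif (TTCCTNGAA; 1.59% of all windows) and the Tcf/Lef motif (CTTTGAT; 3.73%) had no match in these windows. Both strands were searched, no motif overlapped another in these windows, and a match is a run of letters and not a shown binding site. GC content of the 8 windows had a median of 57.7%, against 52.7% over all windows, and 3 of the 8 (37.5%) held at least 10 CpG, against 43.5% of all.

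Every Tfh library lay above every non-Tfh library for each of the 9 genes, an order fixed by their selection and not a result about them. The median of their mean levels was 99.6 CPM in Tfh and 0.858 CPM in non-Tfh cells. A gap in which every Tfh library was at least 8 times every non-Tfh library, with at least 10 CPM, was found in 34 genes (0.291% of those tested), which include these 9, and in 25 genes in the opposite direction. That rule was set after the values were seen. In the fit over all genes (edgeR quasi-likelihood test, Benjamini-Hochberg adjusted p under 0.05), 994 of 11702 genes (8.49%) passed, 523 (4.47%) higher and 471 (4.02%) lower in Tfh cells. All 9 genes passed the filter on low counts, which needs enough counts in 2 libraries. Vwde, Cpeb1, Sbk2 and Dnase1l3, with at most 0.447 CPM in a non-Tfh library, passed through the Tfh libraries alone. Padi4 had 1.27 CPM in non-Tfh T32 but only 0.450 CPM in non-Tfh T53, so its pass also depended on the Tfh libraries.

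**Figure D1:**
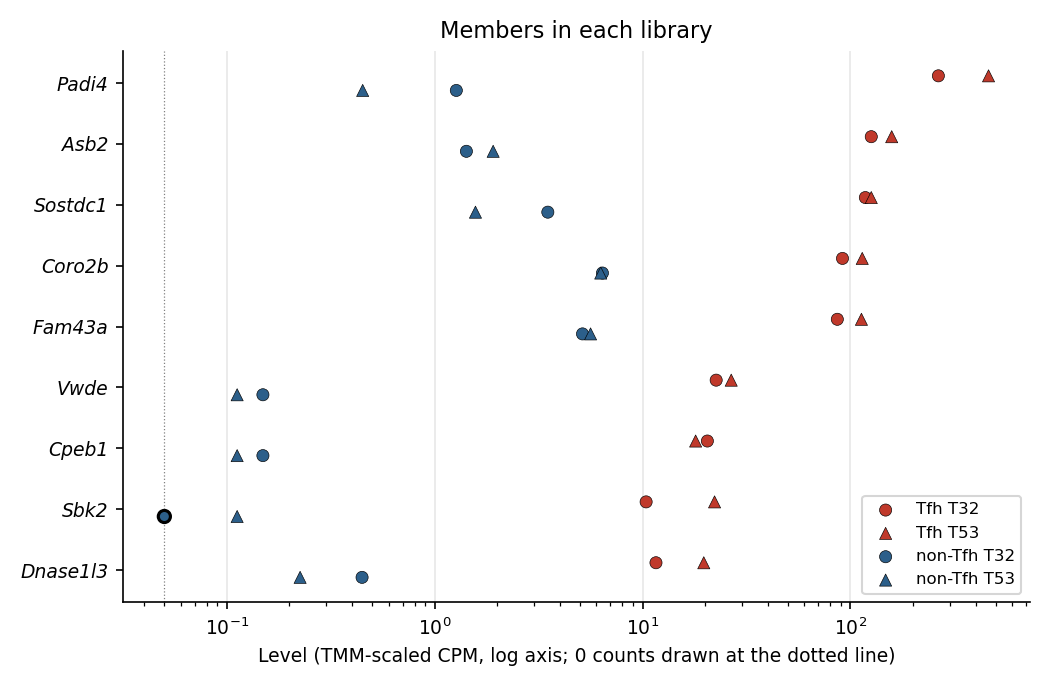
Level of each of the 9 genes in each library, as TMM-scaled CPM on a log axis, with Tfh libraries in red, non-Tfh libraries in blue, circles for T32 and triangles for T53; a value of 0 counts is drawn at the dotted line. All red points lie right of the blue points of the same gene, and the non-Tfh points spread from 0 CPM for Sbk2 to 6.41 CPM for Coro2b.

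Of the enzymes that act on other proteins, Padi4 had the highest level per kilobase of exon in Tfh cells. It encodes peptidylarginine deiminase 4, a calcium-dependent enzyme that turns arginine into citrulline in histones and other proteins and is best known for its part in neutrophil extracellular traps. Padi4 (ENSMUSG00000025330, GRCm38 chr4:140745865-140774236, minus strand, 14 exon blocks) had 3158 and 2645 counts, or 265 and 462 CPM, in the Tfh libraries, against 17 and 4 counts, or 1.27 and 0.450 CPM, in the non-Tfh libraries. Its mean was 363 ± 140 CPM in Tfh and 0.858 ± 0.577 CPM in non-Tfh cells (SD, n = 2 each), a ratio of pooled scaled counts of 349 with a 95% exact binomial interval of 228 to 565. These intervals cover counting error only. On the log2 scale this ratio was 8.45, and it was 9.52 without non-Tfh T32, the library that held 17 of the 21 non-Tfh counts. Per kilobase of exon, Padi4 ranked at the 95.8 and 98.3 percentile of genes with counts in the Tfh libraries, against the 18.1 and 10.4 percentile in the non-Tfh libraries.

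Asb2 encodes the substrate-binding subunit of a Cullin 5 ubiquitin ligase whose known targets include the filamins, proteins that cross-link actin. Asb2 (ENSMUSG00000021200, chr12:103321142-103356001, minus strand) stood at 126 and 158 CPM in the Tfh libraries, from 1506 and 905 counts, against 1.42 and 1.91 CPM in the non-Tfh libraries, from 19 and 17 counts. The pooled ratio was 84.6 (61.0 to 121), and the ratio within each library number was nearly the same, 89.2 for T32 and 82.7 for T53. The annotated Asb2 starts cannot be told apart in counts per gene. Sbk2, of the SH3-binding kinase family, had a much lower level per kilobase. Sbk2 (ENSMUSG00000030433, chr7:4940512-4964406, minus strand) held 124 and 127 counts (10.4 and 22.2 CPM) in the Tfh libraries, against 0 and 1 count (0 and 0.112 CPM) in the non-Tfh libraries. Its pooled ratio of 317 rests on that single count and has an interval of 56.4 to 12580. The log2 ratio of 8.31 became 6.99 without non-Tfh T32, 5.99 without non-Tfh T53 (against a floor of 3 counts) and 8.95 without Tfh T32.

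Of the genes for secreted or predicted extracellular proteins, Sostdc1 had the highest level per kilobase of exon. Its product is a secreted antagonist of BMP and Wnt signalling, studied mainly in tooth, kidney and hair follicle. Sostdc1 (ENSMUSG00000036169, chr12:36314139-36318452, plus strand, 2 exon blocks) had 118 and 126 CPM in the Tfh libraries, from 1413 and 721 counts, against 3.50 and 1.57 CPM in the non-Tfh libraries, from 47 and 14 counts. The Tfh libraries were close to each other and the non-Tfh libraries were not. The pooled ratio was 44.2 (34.3 to 58.0), or 5.47 on the log2 scale, against 6.27 without non-Tfh T32. Within the library numbers the ratio was 33.8 for T32 and 80.0 for T53.

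Dnase1l3 encodes a secreted nuclease that digests chromatin released by dying cells, is known mainly from dendritic cells and macrophages, and protects against lupus-like autoimmunity. Dnase1l3 (ENSMUSG00000025279, chr14:7964533-7994573, minus strand) had 139 and 113 counts (11.6 and 19.7 CPM) in the Tfh libraries, against 6 and 2 counts (0.447 and 0.225 CPM) in the non-Tfh libraries. Its pooled ratio was 39.8 (19.9 to 93.2), or 5.32 on the log2 scale, against 5.99 without non-Tfh T32. Vwde is named for its von Willebrand factor D and EGF-like domains. Vwde (ENSMUSG00000079679, chr6:13156299-13224965, minus strand) had 270 and 153 counts (22.6 and 26.7 CPM) in the Tfh libraries, against 2 and 1 counts (0.149 and 0.112 CPM) in the non-Tfh libraries, a pooled ratio of 178 (60.6 to 868). The Tfh libraries of Vwde lay close together, and the width of its interval comes from the 3 non-Tfh counts.

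Cpeb1 encodes an RNA-binding protein that recognises the cytoplasmic polyadenylation element of mRNAs and sets the length of their poly(A) tails, known best from oocytes and neurons. Cpeb1 (ENSMUSG00000025586, chr7:81347026-81455465, minus strand) had 245 and 103 counts (20.5 and 18.0 CPM) in the Tfh libraries, against 2 and 1 counts (0.149 and 0.112 CPM) in the non-Tfh libraries, a pooled ratio of 147 (49.8 to 714). It was the only one of the 9 genes with a lower value in Tfh T53 than in Tfh T32. Coro2b encodes a coronin, an actin-binding protein described mainly in neurons. Coro2b (ENSMUSG00000041729, chr9:62419492-62537044, minus strand) had 91.6 and 114 CPM in the Tfh libraries, against 6.41 and 6.29 CPM in the non-Tfh libraries, a pooled ratio of 15.5 (13.1 to 18.6). Fam43a, a single-exon gene of little known function (ENSMUSG00000046546, chr16:30599723-30602797, plus strand), had 86.5 and 113 CPM in the Tfh libraries, against 5.14 and 5.62 CPM in the non-Tfh libraries, a pooled ratio of 17.8 (14.8 to 21.6). Coro2b and Fam43a had a low but clearly measured level in non-Tfh cells, with 86 and 56 counts and 69 and 50 counts there.

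The words "almost absent" therefore covered the 9 genes unequally. The non-Tfh level was below 1 CPM in both libraries for 4 genes (Vwde, Cpeb1, Sbk2 and Dnase1l3), and below 2 CPM in both for 6, with Padi4 and Asb2 added. As a percentage of the Tfh level, Padi4 retained 0.286% (95% interval 0.177 to 0.438) and Asb2 1.18% (0.825 to 1.64), whereas Fam43a retained 5.61% (4.62 to 6.76) and Coro2b 6.44% (5.39 to 7.65). Cxcr5, which the gate itself separated, retained 7.33% (6.91 to 7.78) and Pdcd1, which encodes PD-1, 10.1% (9.53 to 10.7). The intervals, which cover counting error only, lay below that of Cxcr5 for 8 genes, and that of Coro2b met it. The 9 genes were selected for a low non-Tfh level, so their place below Cxcr5 is a description and not a test. How far Tfh cells in the non-Tfh gate account for these remainders was not tested.

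**Figure D2:**
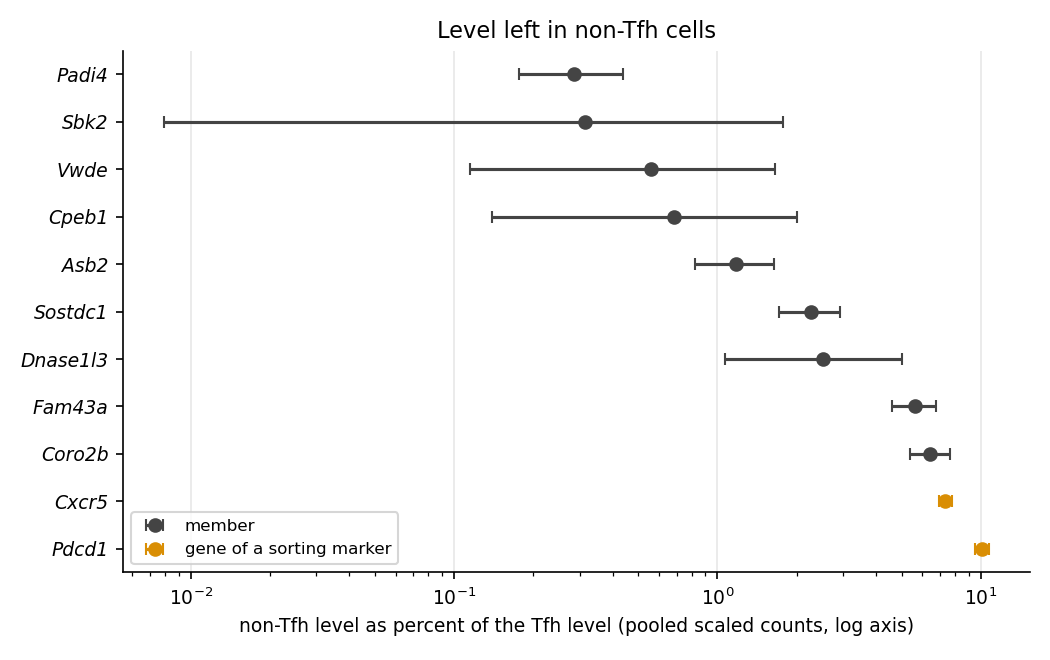
Non-Tfh level as a percentage of the Tfh level for the 9 genes (grey) and for 2 genes whose products were sorted on (orange), on a log axis, with 95% exact binomial intervals from pooled counts. Values run from 0.286% for Padi4 to 6.44% for Coro2b, and Cxcr5 and Pdcd1 lie above all 9, at 7.33% and 10.1%.

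Per kilobase of exon, which allows levels to be compared between genes, the mean Tfh level was 75.1 CPM per kb for Padi4, 68.6 for Sostdc1, 40.1 for Asb2, 32.4 for Fam43a, 17.3 for Coro2b, 5.18 for Sbk2, 4.59 for Cpeb1, 3.39 for Vwde and 3.05 for Dnase1l3. The library values of neighbours in this order overlapped for Padi4 and Sostdc1, Asb2 and Fam43a, Sbk2 and Cpeb1, and Vwde and Dnase1l3. They did not overlap for Sostdc1 and Asb2, Fam43a and Coro2b, Coro2b and Sbk2, or Cpeb1 and Vwde. Exon length here is the union of annotated exons, so a gene that uses a short isoform has a higher true level per kb than shown.

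Within the Tfh group, 8 of the 9 genes had a higher CPM in T53 than in T32. The median ratio of T53 over T32 was 1.25, against 0.998 over all tested genes, of which 49.6% were higher in T53, and 1.10 over the 513 other genes that were higher in Tfh cells, of which 68.4% were higher in T53. The ratio was 2.14 (1.65 to 2.76) for Sbk2, 1.75 (1.66 to 1.84) for Padi4 and 1.69 (1.31 to 2.19) for Dnase1l3. A ratio of at least 1.5 was thus found in 3 of the 9 genes, against 7.37% of all tested genes and 13.6% of the others higher in Tfh cells. The counting interval lay above 1 for 6 genes and held 1 for Sostdc1, Vwde and Cpeb1. T53 was the shallower Tfh library, and what set the 2 libraries apart was not tested.

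**Figure D3:**
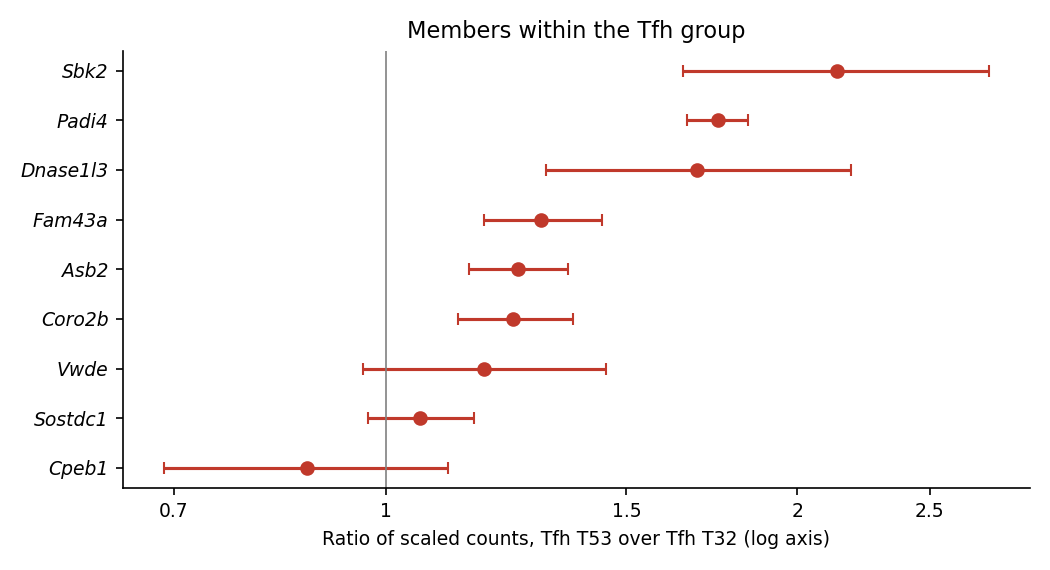
Ratio of scaled counts in Tfh T53 over Tfh T32 for each of the 9 genes, on a log axis, with 95% exact binomial intervals for counting error. Sbk2, Padi4 and Dnase1l3 lie at 1.69 or more, and Cpeb1 alone lies below 1, at 0.876.

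Markers of other cell types were measured beside these genes because several of the genes are known from other lineages. Of 15 granulocyte markers, 10 had no counts in any library, among them Ly6g, Mpo, Elane and S100a9, and the list summed to 1.42 and 0.699 CPM in the Tfh libraries, against 1.42 and 1.69 CPM in the non-Tfh libraries. The 265 and 462 CPM of Padi4 in the Tfh libraries thus stood beside granulocyte markers at or near 0. Of 12 macrophage markers, 10 had counts, with sums of 5.11 and 6.29 CPM in the Tfh libraries, against 2.76 and 8.21 CPM in the non-Tfh libraries. Of 12 dendritic cell markers, Clec9a, Siglech and Clec10a were at 0, and the list summed to 65.9 and 52.2 CPM in the Tfh libraries, against 60.0 and 47.5 CPM in the non-Tfh libraries. Bst2 and Irf8 made up most of these sums. Irf8, which T cells can also express, was the only dendritic marker that passed the test (35.3 and 37.2 CPM in Tfh, against 11.0 and 15.6 CPM in non-Tfh; adjusted p = 0.00999).

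B cell and germinal centre B cell markers moved with the group. The 11 matched B cell markers summed to 199 and 192 CPM in the Tfh libraries, against 161 and 131 CPM in the non-Tfh libraries, most of it Ighm. Pax5 rose to 5.11 and 5.24 CPM in the Tfh libraries, against 0 and 0.450 CPM in the non-Tfh libraries (adjusted p = 0.0238). The 9 germinal centre B cell markers summed to 104 and 114 CPM in the Tfh libraries, against 45.3 and 36.4 CPM in the non-Tfh libraries, and S1pr2 and Fas, which Tfh cells also express, passed the test as higher. Gcsam and Mef2b had no counts in any library. NK markers summed to 45.2 and 57.8 CPM in the Tfh libraries, against 22.5 and 15.3 CPM in the non-Tfh libraries, most of it Klrb1c, which rose, while Eomes fell. The part of these cells in the levels of the 9 genes was not tested. Stromal and erythroid markers summed to at most 2.47 CPM in any library. Plasma cell markers (175 to 283 CPM), endothelial markers (217 to 242 CPM) and CD8 T cell markers (4.02 to 9.55 CPM) were not higher in the Tfh libraries by the test, and Klrd1 of the CD8 T list fell. Most of the plasma cell sum was Irf4 and Xbp1, and Tnfrsf17 had no counts. Most of the endothelial sum was Pecam1 (236 and 230 CPM in Tfh, against 211 and 228 CPM in non-Tfh), and Kdr, Tek and Lyve1 had no counts.

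The families and molecular partners of the 9 genes were then examined, as 14 lists with 131 genes, of which 76 were tested. Only 1 of the 76 was higher and 4 were lower in Tfh cells, 6.58% in all, against 8.49% of all genes tested. The median log2 fold change over all tested genes was -0.01.

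None of the other deiminases was higher in Tfh cells by the test. Padi2 fell to 1.93 and 2.62 CPM in the Tfh libraries, against 5.81 and 6.29 CPM in the non-Tfh libraries (log2 fold change -1.44 ± 0.32 SE, adjusted p = 0.0452). That call was lost when any of the 4 libraries was left out (adjusted p 0.0947 to 0.207) and with DESeq2 (0.114). Padi1 had 1.09 and 0.524 CPM in the Tfh libraries, against 1.42 and 0.337 CPM in the non-Tfh libraries, and Padi3 1.42 and 1.92 CPM, against 1.04 and 0.674 CPM. Padi6 had 2 counts in all, both in Tfh T32. In Tfh cells Padi4 was thus the main deiminase transcript, at 75.1 CPM per kb against at most 0.485 CPM per kb for the others.

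None of the 6 tested ASB genes and none of the 5 Cullin 5 ligase core genes passed. Asb6 averaged 30.8 ± 2.79 CPM in Tfh and 37.9 ± 0.208 CPM in non-Tfh cells, and Asb3 32.1 ± 3.97 and 31.3 ± 2.33 CPM (SD, n = 2 each). Cul5, the scaffold of the ligase, averaged 79.9 CPM in Tfh and 82.8 CPM in non-Tfh cells, Elob 62.3 and 52.5 CPM, Eloc 22.8 and 24.1 CPM, Rnf7 27.2 and 30.7 CPM, and Arih2 67.2 and 74.7 CPM. The ligase core was therefore measured at substantial levels in both groups while Asb2 was not. Flna, a filamin and known Asb2 target, averaged 1129 ± 95.9 CPM in Tfh and 1829 ± 303 CPM in non-Tfh cells (log2 fold change -0.70 ± 0.17 SE). It did not pass (adjusted p = 0.0613), nor did it with RLE scaling (0.0589) or a filter of 5 CPM (0.0669). It passed with DESeq2 (0.000717) and without the count filter (0.000973), a setting in which 1986 genes passed, against 994. With a library left out, its log2 fold change ran from -0.514 (without non-Tfh T32) to -0.856 (without non-Tfh T53).

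Around Sostdc1, none of the 2 tested secreted antagonists and none of the 6 tested Wnt and BMP receptors passed, and 2 of 15 tested effectors and targets fell, against 4.02% of all genes tested. Smad7, an inhibitor of TGF-beta and BMP signalling, fell to 1.51 and 4.89 CPM in the Tfh libraries, against 56.7 and 85.8 CPM in the non-Tfh libraries (log2 fold change -4.67 ± 0.52 SE, adjusted p = 0.0108). With non-Tfh T32 left out its adjusted p was 0.0541, and with non-Tfh T53 left out 0.0681. Its log2 fold change was -3.85 without Tfh T32 and -5.53 without Tfh T53. Id2, a BMP target that inhibits E proteins, fell to 11.9 and 12.2 CPM, against 75.9 and 92.6 CPM (-2.80 ± 0.16 SE, adjusted p = 0.000516). Its relatives did not share this: Id3 had 90.9 and 102 CPM in the Tfh libraries, against 71.2 and 75.8 CPM in the non-Tfh libraries, and did not pass (adjusted p = 0.111), and Id1, below the count filter, had 0.419 and 3.14 CPM, against 0.149 and 0.225 CPM. Twsg1, a BMP-binding protein, averaged 98.6 ± 13.5 CPM in Tfh and 68.2 ± 1.27 CPM in non-Tfh cells and did not pass (adjusted p = 0.0647; 0.00517 without the count filter). Fstl1 averaged 1.19 CPM in Tfh and 1.21 CPM in non-Tfh cells. Of the receptors, Lrp6 averaged 100 CPM in Tfh and 102 CPM in non-Tfh cells, and Fzd5 10.9 and 11.3 CPM.

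Around Cpeb1, neither tested family gene passed: Cpeb4 averaged 75.9 CPM in Tfh and 71.7 CPM in non-Tfh cells, and Cpeb2 23.4 and 20.6 CPM. Cpeb3 was near 0 in both groups (0.384 and 0.243 CPM). None of 14 genes of cytoplasmic polyadenylation passed, with Pabpc1 at 394 CPM in Tfh and 384 CPM in non-Tfh cells and Pum2 at 290 and 312 CPM. For the kinase family, Sbk1 averaged 37.4 CPM in Tfh and 46.9 CPM in non-Tfh cells (adjusted p = 0.295), and Sbk3 had 1 count in all.

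Among the nucleases, Dnase2a, the lysosomal DNase, rose to 25.6 and 25.5 CPM in the Tfh libraries, against 13.9 and 14.8 CPM in the non-Tfh libraries, 1.78-fold (adjusted p = 0.0244). That call was lost with Tfh T53 (0.101), Tfh T32 (0.106) or non-Tfh T32 (0.0647) left out. The other 5 tested nucleases did not pass, and Dnase1 and Dnase2b had no counts. Of the coronins, Coro2a, the closest relative of Coro2b, ran the other way. It fell to 0.838 and 0.873 CPM in the Tfh libraries, against 18.5 and 16.0 CPM in the non-Tfh libraries (log2 fold change -4.32 ± 0.28 SE, adjusted p = 0.000729), and kept this call under every alternative tried. Coro2b itself stood at 91.6 and 114 CPM in Tfh, against 6.41 and 6.29 CPM in non-Tfh, so the 2 type II coronins had opposite patterns. Coro1a, the main T cell coronin, averaged 1089 CPM in Tfh and 1213 CPM in non-Tfh cells, Coro1b 173 and 155 CPM, Coro1c 109 and 117 CPM, and Coro7 162 and 201 CPM, and none passed. Coro6 had at most 3 counts in a library. None of the 9 Arp2/3 complex genes passed, with Actr3 at 597 CPM in Tfh and 633 CPM in non-Tfh cells and Actr2 at 458 and 442 CPM. Fam43b had no counts.

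**Figure D4:**
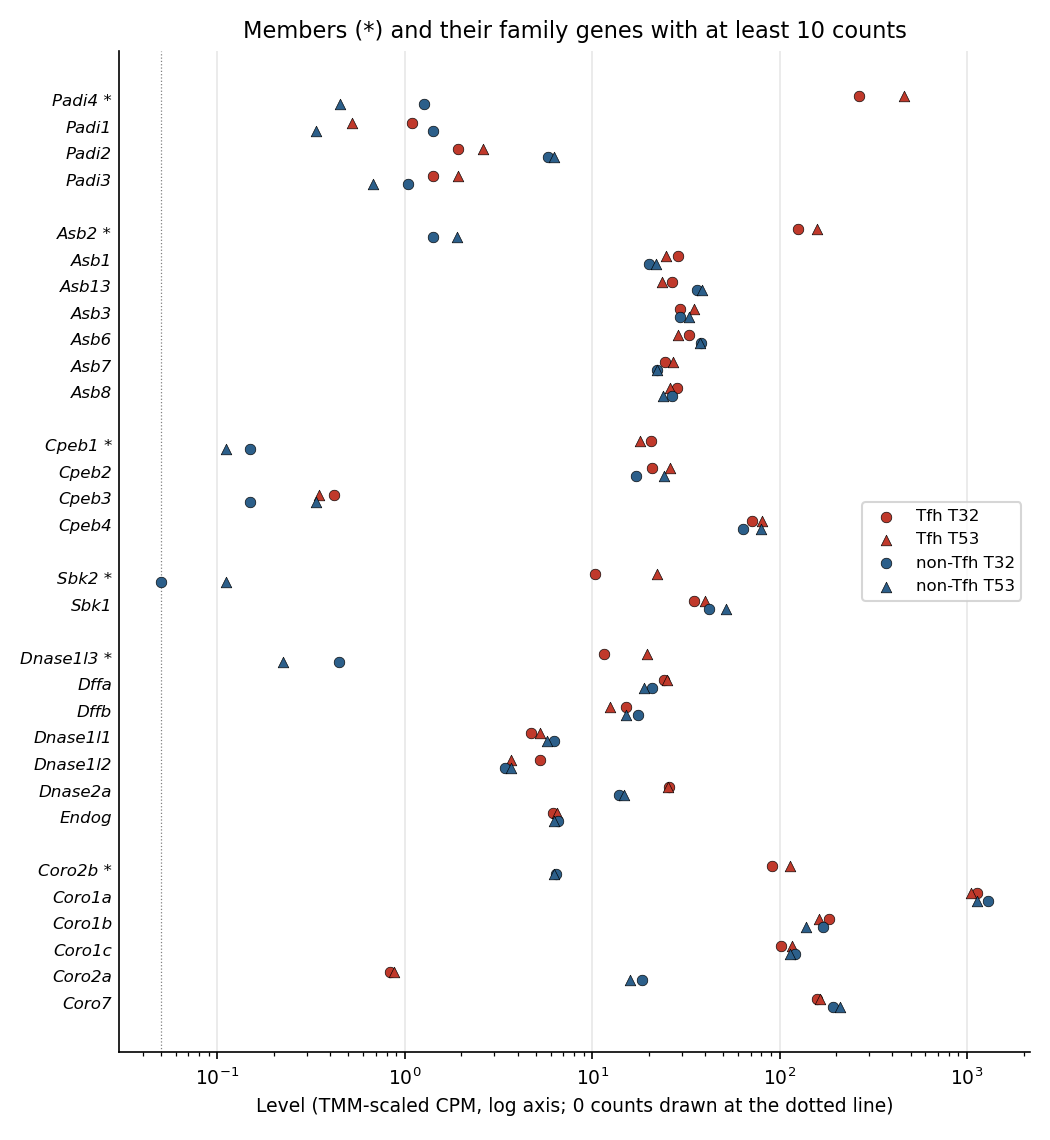
Levels in each library (TMM-scaled CPM, log axis) of 6 of the genes, marked by an asterisk, and of their family genes with at least 10 counts in all, with Tfh libraries in red, non-Tfh libraries in blue, circles for T32 and triangles for T53. Coro2b and Coro2a lie in opposite order, and Padi2 and Coro2a are the family genes that fell in Tfh cells and Dnase2a the one that rose.

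The position of the genes was not used in choosing them. They lie on 7 chromosomes, 7 of them on the minus strand. The nearest 3 protein-coding genes on each side within 500 kb gave 48 genes, of which 30 were tested. Of these, 1 was higher and 2 were lower in Tfh cells, 3 of 30, a share near the 8.49% of all genes tested. Their median log2 fold change was -0.07, with a range of -2.40 to 1.21.

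Pde8a, a cAMP phosphodiesterase gene 12.5 kb from Cpeb1, fell to 1.19 ± 0.449 CPM in Tfh cells, against 6.65 ± 1.45 CPM in non-Tfh cells (SD, n = 2 each; log2 fold change -2.40 ± 0.39 SE; adjusted p = 0.0167, and 0.0519 without non-Tfh T32). Bzw2, 156 kb from Sostdc1, rose to 212 ± 16.9 CPM, against 140 ± 8.23 CPM (1.51-fold; adjusted p = 0.0341, and 0.0726 to 0.154 with Tfh T53, Tfh T32 or non-Tfh T32 left out). The third was Padi2, 132 kb from Padi4. Otub2, 32.7 kb from Asb2, averaged 7.20 CPM in Tfh and 3.10 CPM in non-Tfh cells and did not pass (adjusted p = 0.0697; 0.00923 without the count filter).

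The nearest neighbours of the genes had much smaller differences or hardly any counts. The genes were selected for a large difference, so this contrast is a description and not a test. Ap3b2, 4.93 kb from Cpeb1, had no counts. Sbk3 (0.854 kb) and Nat14 (15.5 kb) beside Sbk2 were below 1 CPM on average in both groups. Abhd6, 8.33 kb from Dnase1l3, averaged 7.59 CPM in Tfh and 5.01 CPM in non-Tfh cells, and Lsg1, 12.1 kb from Fam43a, 36.8 and 48.9 CPM. Beside Coro2b, Anp32a averaged 149 CPM in Tfh and 155 CPM in non-Tfh cells, and Itga11 had at most 1 count in a library. Beside Vwde, Tmem106b averaged 136 CPM in Tfh and 117 CPM in non-Tfh cells, and Tmem168 60.3 and 70.4 CPM. Xxylt1, on the far side of Fam43a, averaged 18.1 and 19.8 CPM. Padi6 and Padi3 beside Padi4 were given above, and Fam181a beside Asb2 had no counts. Beside Sostdc1, Lrrc72 averaged 0 CPM in Tfh and 0.112 CPM in non-Tfh cells, and D630036H23Rik 0.510 and 0.392 CPM.

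**Figure D5:**
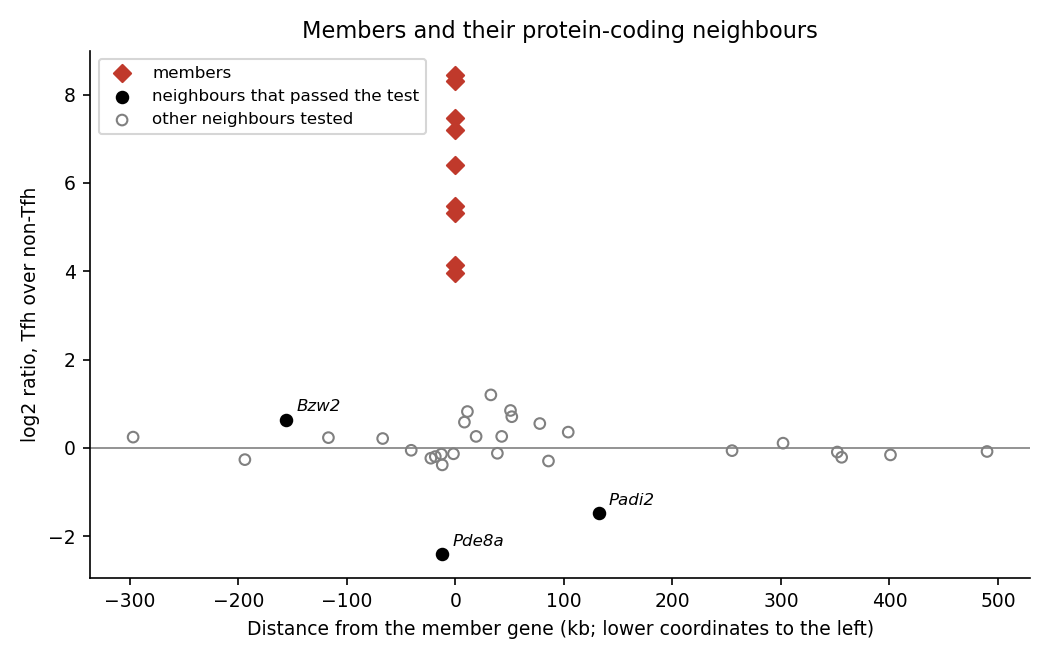
Log2 ratio of pooled scaled counts, Tfh over non-Tfh, for the 9 genes (red, at distance 0) and for their tested protein-coding neighbours, against distance in kb, with lower coordinates to the left. The 9 genes lie between 3.96 and 8.45, and the neighbours that passed the test (black) are Bzw2, Padi2 and Pde8a.

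By the Euclidean distance of log2(CPM + 0.5) over the 4 libraries, the genes nearest to the mean profile of the 9 included Cdh23 (1.05), Dab2ip (1.18), Sccpdh (1.25), Cd160 (1.37) and Akap6 (1.38). Cdh23, a cadherin gene, had 33.1 and 51.5 CPM in the Tfh libraries, against 1.64 and 1.91 CPM in the non-Tfh libraries. Cd160, which encodes an Ig-family receptor of T and NK cells, had 49.1 and 60.3 CPM in the Tfh libraries, against 2.53 and 2.59 CPM in the non-Tfh libraries. The 9 genes themselves lay 1.96 (Asb2) to 3.73 (Padi4) from their mean, farther than these 5, so the mean profile stands for a mid level that few of them have. With 4 libraries such a likeness mainly states a similar level in each group.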

How the data were processed

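RNA of sorted Tfh cells (2 libraries) and non-Tfh cells (2 libraries) was prepared with a stranded total RNA kit and sequenced in read pairs of 75 bases, per the labels' protocols. The authors deposited raw read counts for Ensembl gene identifiers. TopHat2, Bowtie2, HTSeq and the build GRCm38 (mm10) are named in the submitters' processing notes. Versions, annotation release and strand setting are not given in the sources used here, so reads of overlapping genes on opposite strands may not be told apart. Groups came from the sample labels. The genes and all lists were chosen with earlier results of these data known.

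Of 39179 identifiers, 37607 matched GENCODE M21, which gave symbols, positions and exon lengths. Counts were fitted in R 4.3.3 with edgeR 4.0.16 (filterByExpr, TMM scaling, robust quasi-likelihood test, two-sided, group only, 2 residual degrees of freedom, Benjamini-Hochberg adjustment over all 11702 genes tested, threshold 0.05). The biological coefficient of variation was 0.156. Levels are TMM-scaled CPM, computed from the deposited counts. The selected genes are described by pooled scaled counts with exact (Clopper-Pearson) 95% binomial intervals and a floor of 3 counts where a group had none. Replicate libraries were checked as distinct: chi-square per gene was 11.7 in Tfh and 18.9 in non-Tfh.

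Named genes were the 9, every gene with counts of lists of at most 7, up to 4 that passed (or the 2 most abundant) of longer lists, the nearest and the passing neighbours, and the 6 of most similar profile. Cell type markers were named after their values were seen. Of 10 genes listed at first, 1 is not reported here, and neither are a few partner, neighbour and marker genes. Alternatives were RLE scaling, DESeq2 1.42.0, no count filter, a filter of 5 CPM, a replicate block, 1 neighbour per side and each library left out. Python 3.11.15, pandas 2.3.3, numpy 2.4.6, scipy 1.17.1 and matplotlib 3.10.9 were used, and the fit was tested on simulated data.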

Additional observations from a re-analysis of the deposited data

How the results depend on the processing

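The direction of the 9 genes is fixed by their selection. Of 365 fold changes of named genes under an alternative, 320 kept direction and side of the threshold, and no called gene reversed. Without the count filter 1986 genes passed (1006 higher, 980 lower), and with a replicate block 2120 (1069 higher, 1051 lower). With a library left out, 545 to 884 passed, 298 to 454 higher and 247 to 435 lower, fewest without Tfh T53. Deviations of same-numbered libraries correlated at 0.371 over 11702 genes, but with 2 pairs and no label to explain the numbers this is only a hint of pairing. Partner and family genes that passed numbered 8 with DESeq2 (2 higher), 14 without the filter (4 higher, 10 lower), 20 with the replicate block (7 higher, 13 lower) and 2 to 5 with a library left out (0 to 1 higher, 2 to 5 lower). Neighbours that passed numbered 5 without the filter, 6 with the replicate block, 0 with 1 gene per side and 0 to 2 with a library left out. Flna (adjusted p = 0.00515), Twsg1 (0.0171), Otub2 (0.0200), Coro7 (0.0415) and Lsg1 (0.0428) passed with the replicate block. The cause of these shifts was not tested. The median log2 pooled ratio of the 9 genes, 6.40, was 6.27 to 6.62 with Tfh T32, Tfh T53 or non-Tfh T32 left out. Without non-Tfh T53 the median was 5.99, which is the Sbk2 ratio in that setting. Sbk2 had no counts in non-Tfh T32, so that ratio was set by the count floor and is not a measured fall. Single ratios that moved beyond their spread without non-Tfh T32 were 9.52 for Padi4, 6.27 for Sostdc1 and 7.74 for Vwde. Spread here combines the SDs of log2(CPM + 0.5) over the 2 libraries of each group and leaves out counting error. A move beyond it can thus still lie within the counting interval, as that of Vwde did. Cpeb1 (7.46), Sbk2 (6.99) and Dnase1l3 (5.99) also moved without non-Tfh T32. Without non-Tfh T53, Cpeb1 moved to 7.05 and Sbk2 to its floor value of 5.99.

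Signs turned only for genes that did not pass. With a library left out, log2 fold changes ranged from -0.81 to 0.24 for Padi1, -0.0772 to 0.16 for Asb3, -0.29 to 0.11 for Eloc, -0.46 to 0.33 for Fstl1 (-0.00747 with DESeq2), -0.21 to 0.18 for Lrp6, -0.35 to 0.22 for Fzd5, -0.0512 to 0.44 for Cpeb2, -0.0654 to 0.24 for Cpeb4, -0.22 to 0.27 for Pabpc1, -0.25 to 0.0435 for Pum2, -0.0414 to 0.16 for Actr2, -0.22 to 0.12 for Anp32a and -0.28 to 0.0368 for Xxylt1. Depth limits the 3 genes with 1 to 3 non-Tfh counts (Vwde, Cpeb1 and Sbk2), whose ratios are known only to within about their printed intervals.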
